A study of Rattus norvegicus with 6 samples.

Results

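Antigen presentation was followed through 9 genes of the rat kidney inner medulla: Cd74, RT1-Da, RT1-Ba, RT1-Bb and Ciita of the class II pathway, and RT1-N2, B2m, Tap1 and Tap2 of the class I pathway. They are 9 of the 14168 genes that had a probe set with a single symbol of their own, and they were chosen by name. Where a gene has several probe sets, the brightest by its mean over all arrays is selected, but each of the 9 had 1 such probe set, so this measured value decided nothing. Affymetrix whole-transcript arrays were hybridised with inner medulla RNA from male Sprague-Dawley rats in 3 groups of 2 arrays. In the withdrawal group dDAVP (desmopressin, an agonist of the vasopressin V2 receptor) had been infused subcutaneously at 40 ng/h for 5 days, and the pump was then explanted during light enflurane anaesthesia, 3 h before tissue collection. The dDAVP group received the same infusion for 5 days, while vehicle rats were infused with saline (1 µl/h) over 5 days from the same kind of pump. All rats ate a fixed ration of a standard diet and drank freely, and their age is not given in the sources used here. Pump removal and enflurane are described for the withdrawal group alone, so they cannot be told apart from the end of the infusion. The labels do not say whether the 2 arrays of a group came from separate rats, so the p-values below measure the spread between arrays, which may in part be technical.

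Cells display peptides on 2 kinds of surface molecule. Class I molecules pair a heavy chain with beta-2 microglobulin (B2m) and are loaded in the endoplasmic reticulum with peptides that the Tap1-Tap2 transporter brings in from the cytosol; nearly all nucleated cells carry them. Class II molecules pair an alpha with a beta chain (in the rat, RT1-Da and RT1-Ba are alpha chains and RT1-Bb is a beta chain), are escorted by the invariant chain Cd74 and are typical of dendritic cells, macrophages and B cells. Their shared promoter module binds RFX, CREB and NF-Y factors, on which the coactivator Ciita assembles. In a bulk tissue such as this one, fewer cells of a type and less RNA per cell cannot be told apart.

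The promoter windows of the 3 class II chain genes are shown first because the alpha chains RT1-Da and RT1-Ba, with Cd74, had the widest ranges between arrays after RT1-N2. Each window runs from 250 bases before to 50 bases after the RefSeq start (assembly GRCr8, given 5′ to 3′ on the gene's own strand). The window of RT1-Da is chr20:4515165-4515464 (plus strand), that of RT1-Ba chr20:4576807-4577106 (plus strand) and that of RT1-Bb chr20:4604069-4604368 (minus strand). Capitals mark CTGATTGG, the letters of the Y box bound by NF-Y, and before it ACNGATG, the letters of part of the X box, or the cyclic AMP response element TGACGTCA.
RT1-Da: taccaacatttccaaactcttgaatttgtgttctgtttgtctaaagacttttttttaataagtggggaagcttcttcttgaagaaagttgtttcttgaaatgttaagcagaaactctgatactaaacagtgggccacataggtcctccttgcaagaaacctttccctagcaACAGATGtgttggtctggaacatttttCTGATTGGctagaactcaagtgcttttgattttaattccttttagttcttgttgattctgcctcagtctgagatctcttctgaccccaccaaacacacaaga
RT1-Ba: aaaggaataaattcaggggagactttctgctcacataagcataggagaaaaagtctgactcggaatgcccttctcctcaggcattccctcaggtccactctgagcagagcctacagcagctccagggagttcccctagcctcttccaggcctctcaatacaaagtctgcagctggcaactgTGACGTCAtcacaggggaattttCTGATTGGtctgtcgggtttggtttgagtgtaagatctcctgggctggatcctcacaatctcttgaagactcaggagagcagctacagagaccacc
RT1-Bb: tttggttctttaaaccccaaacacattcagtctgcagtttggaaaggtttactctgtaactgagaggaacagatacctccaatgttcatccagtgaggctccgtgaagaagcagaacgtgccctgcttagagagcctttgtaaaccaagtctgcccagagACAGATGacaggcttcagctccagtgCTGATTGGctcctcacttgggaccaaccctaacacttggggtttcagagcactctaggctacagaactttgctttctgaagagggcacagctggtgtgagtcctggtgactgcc
Motifs were searched on both strands of every window after the members' windows had been seen, so a match is a description and not a site. CTGATTGG stood in all 3 of these windows, first base at -52 in RT1-Da, -46 in RT1-Ba and -64 in RT1-Bb, and in 3.55% of all 27457 windows. It contains the opposite-strand letters of CCAAT, which 37.7% of all windows held. ACNGATG lay at -79 in RT1-Da and at -90 in RT1-Bb (9.96% of all windows), and TGACGTCA at -69 in RT1-Ba (1.91%). The order GNNAC followed by CTGATTGG 24 to 32 bases further on was present in all 3, at spacings of 30, 30 and 29 bases, against 0.452% of all windows. It was also present in 4 of the 6 other class II chain and editor genes with a window, namely RT1-DOa, RT1-Db1, RT1-Db2 and RT1-Ha. CTGATTGG by itself was not limited to class II genes: on either strand it stood in 11 of the 31 class I heavy chain and class I-like genes with a window, RT1-A1, RT1-A2 and RT1-A3 among them. These class I genes are close copies of each other, so their matches are not separate observations. All 11 held it on the opposite strand. None of the 31 held GNNAC at that spacing, but the search required GNNAC before the exact letters CTGATTGG on the same strand. It cannot say whether a variant of the order is present. RT1-CE5, for example, held ACNGATG at -102 and the opposite-strand letters of CCAAT at -72.

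The windows of Cd74, B2m and Tap1 are shown as those of the invariant chain and of 2 class I pathway genes. They are chr18:56526956-56527255 (plus strand) for Cd74, chr3:129549080-129549379 (plus strand) for B2m and chr20:4668494-4668793 (minus strand) for Tap1. Capitals mark CCAAT in Cd74, and in B2m and Tap1 GAAANNGAA, the core letters of an interferon-stimulated response element, and GGGACTTTC, letters of a kappa B site, each on either strand.
Cd74: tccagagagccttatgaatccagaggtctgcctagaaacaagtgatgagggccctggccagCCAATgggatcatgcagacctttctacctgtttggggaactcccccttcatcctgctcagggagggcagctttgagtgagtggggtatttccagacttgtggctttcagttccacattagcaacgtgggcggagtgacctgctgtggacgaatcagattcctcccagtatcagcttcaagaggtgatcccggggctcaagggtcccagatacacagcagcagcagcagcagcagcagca
B2m: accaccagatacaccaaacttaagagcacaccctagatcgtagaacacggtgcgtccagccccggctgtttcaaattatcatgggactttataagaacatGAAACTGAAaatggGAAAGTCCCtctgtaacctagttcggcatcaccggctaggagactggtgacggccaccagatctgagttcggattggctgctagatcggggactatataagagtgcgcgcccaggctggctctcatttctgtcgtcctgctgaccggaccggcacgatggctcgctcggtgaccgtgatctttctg
Tap1: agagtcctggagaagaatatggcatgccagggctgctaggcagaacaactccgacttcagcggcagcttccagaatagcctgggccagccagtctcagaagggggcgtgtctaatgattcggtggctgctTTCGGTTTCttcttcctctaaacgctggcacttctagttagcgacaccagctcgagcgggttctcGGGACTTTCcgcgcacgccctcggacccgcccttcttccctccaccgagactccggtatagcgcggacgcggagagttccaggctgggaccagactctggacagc
GAAANNGAA was found in B2m (-150) and Tap2 (-41) on the gene's strand and in Tap1 (-120) on the opposite strand, and in 9.5% of all windows. GGGACTTTC was found in Tap1 (-55) and, on the opposite strand, in B2m (-136), and in 0.328% of all windows. CCAAT lay at -189 in Cd74. Of the 9 members 8 had a window in the RefSeq table, and Ciita is named only.

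**Figure D1:**
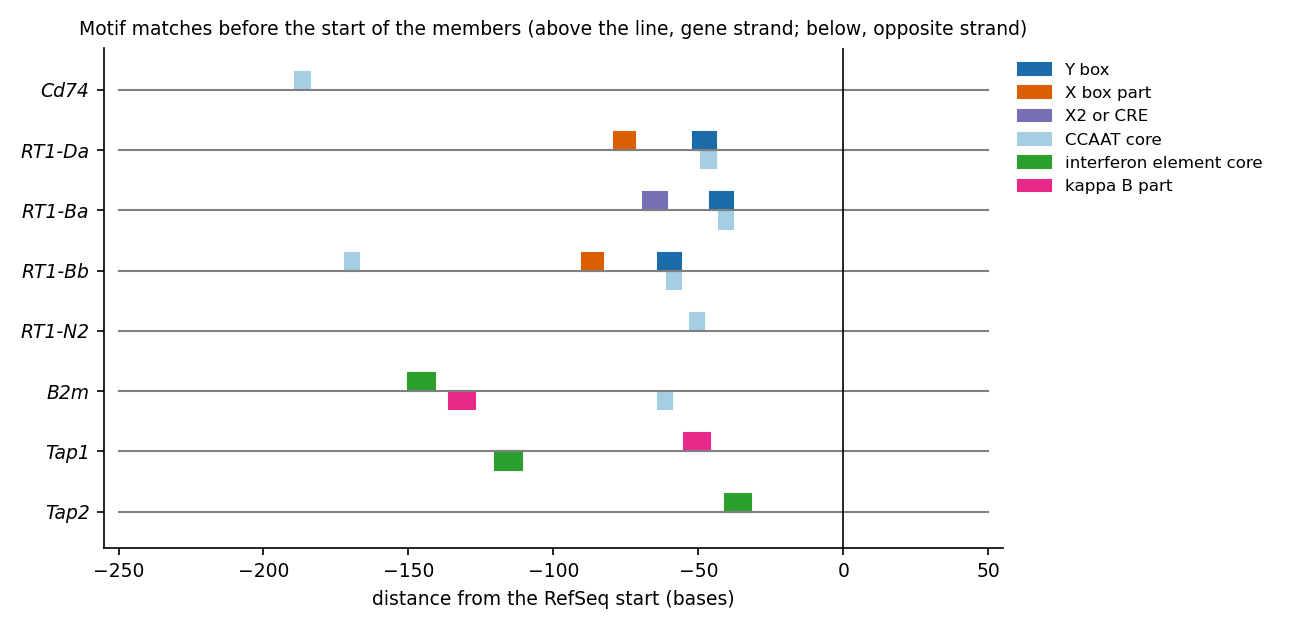
Motif matches in the promoter windows of the 8 members with one, plotted by distance from the RefSeq start in bases (matches on the gene's strand above each line, on the opposite strand below it). The Y box letters lie between -64 and -46 in RT1-Da, RT1-Ba and RT1-Bb.

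The array values of the class II members are log2 intensities, and they follow in the order replicate 1, replicate 2. Cd74 measured 8.81 and 9.39 in the withdrawal arrays, 9.17 and 9.86 in the dDAVP arrays, against 9.99 and 8.74 in the vehicle arrays. The highest and the lowest value of this invariant chain were thus the 2 vehicle arrays, 2.38-fold apart, and all groups overlapped. RT1-Da, the alpha chain of the D molecule, measured 9.37 and 9.84 in the withdrawal arrays, 9.40 and 10.49 in the dDAVP arrays, against 10.87 and 9.49 in the vehicle arrays. It spanned 2.82-fold over the 6 arrays, with vehicle 1 and dDAVP 2 at the top as for Cd74. RT1-Ba, the alpha chain of the B molecule, measured 8.03 and 8.10 in the withdrawal arrays, 7.82 and 8.29 in the dDAVP arrays, against 8.81 and 7.83 in the vehicle arrays. It spanned 1.98-fold with the same 2 arrays at the top.

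RT1-Bb and Ciita varied over a much narrower range. RT1-Bb, the beta chain that pairs with RT1-Ba, measured 7.39 and 7.46 in the withdrawal arrays, 7.35 and 7.40 in the dDAVP arrays, against 7.50 and 7.20 in the vehicle arrays, a span of 1.23-fold. Ciita, the coactivator of class II transcription, measured 6.98 and 6.93 in the withdrawal arrays, 6.63 and 6.71 in the dDAVP arrays, against 6.91 and 6.74 in the vehicle arrays. Both dDAVP arrays lay below both vehicle arrays and below both withdrawal arrays, and both withdrawal arrays lay above both vehicle arrays.

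Of the class I members, RT1-N2 had the widest range of all 9. This class I heavy chain measured 8.32 and 10.58 in the withdrawal arrays, 10.16 and 10.50 in the dDAVP arrays, against 10.87 and 10.47 in the vehicle arrays. Withdrawal 1 lay 1.84 (log2, 3.59-fold) below the next array, while the other 5 arrays spanned 10.16 to 10.87. Among all 14168 genes, RT1-N2 was the 1 gene whose value in withdrawal 1 was more than 1 (log2) below every other array. Its probe set is annotated to 2 transcripts and RT1 heavy chains are near-identical copies of each other, so which RT1 gene was read is uncertain.

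B2m, Tap1 and Tap2 were close to level over the arrays. B2m measured 12.54 and 12.76 in the withdrawal arrays, 12.53 and 12.45 in the dDAVP arrays, against 12.59 in each of the 2 vehicle arrays. The dDAVP arrays were below the vehicle arrays and below the withdrawal arrays, by small amounts. Tap1, one subunit of the peptide transporter, measured 9.47 and 9.64 in the withdrawal arrays, 9.54 and 9.47 in the dDAVP arrays, against 9.44 and 9.47 in the vehicle arrays, a span of 1.14-fold. Tap2, the other subunit, measured 7.94 and 7.97 in the withdrawal arrays, 7.89 and 8.04 in the dDAVP arrays, against 8.04 and 7.83 in the vehicle arrays, a span of 1.16-fold. The 2 subunits did not share an order of arrays.

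**Figure D2:**
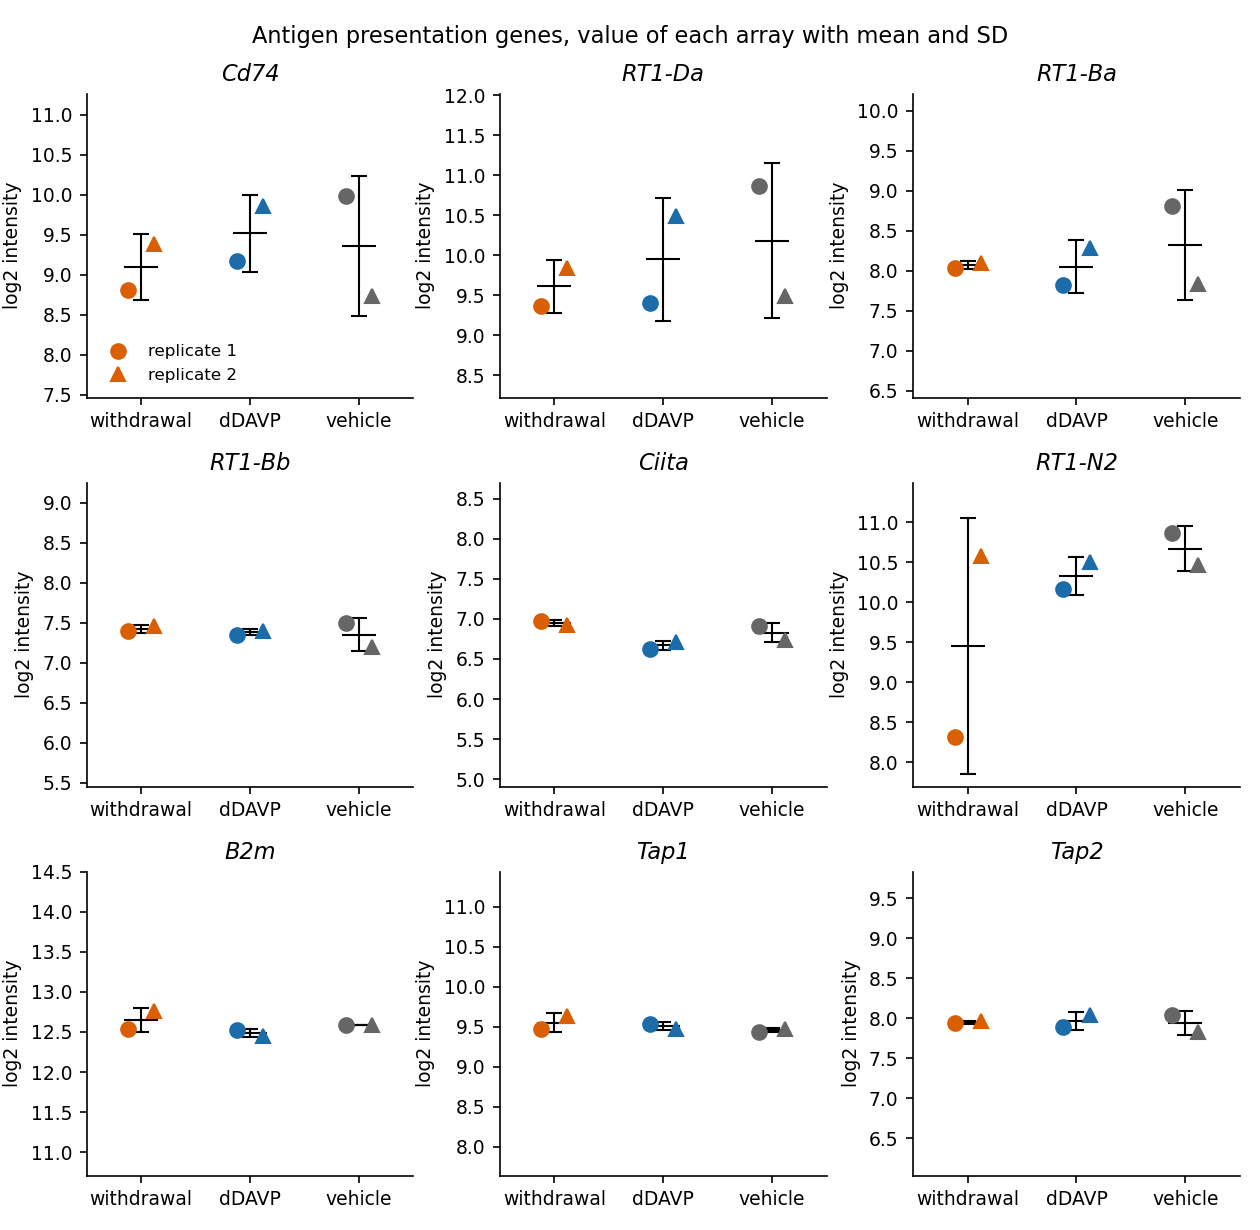
Log2 intensity of the 9 members in each array (circles replicate 1, triangles replicate 2), with the mean and SD of the 2 arrays of each group, every panel spanning the same number of log2 units. Cd74, RT1-Da and RT1-Ba are split within the dDAVP and vehicle groups, RT1-N2 is low in withdrawal 1 (8.32), and B2m, Tap1 and Tap2 are nearly level.

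The difference of no member between groups passed the test. In dDAVP against vehicle, 0 of the 9 members had an adjusted p under 0.05 in limma's moderated test (Benjamini-Hochberg over all 14168 genes), nor did any other gene (0%). At an unadjusted p under 0.05 the count was also 0 of 9, against 7.43% of all genes. The arrays of B2m and Ciita did not overlap and were lower in the dDAVP group, 2 of 9 members where 40.6% of all genes were placed so. 0 of 9 were placed higher without overlap, against 4.8% of all genes. The median difference of the members was -0.10 beside -0.11 for all genes (log2).

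The intervals of these differences show what 2 arrays a group can resolve. Cd74 averaged 9.52 ± 0.48 in the dDAVP group and 9.36 ± 0.88 in the vehicle group (log2, SD, n = 2 each), a difference of 0.15 ± 0.44 (SE, 95% interval -0.93 to 1.23). RT1-Da averaged 9.95 ± 0.77 in the dDAVP group and 10.18 ± 0.97 in the vehicle group, a difference of -0.24 ± 0.52 (-1.51 to 1.03). Either interval thus holds a 2-fold change in at least 1 direction. By contrast Tap1 differed by 0.05 ± 0.10 (-0.19 to 0.29) and Tap2 by 0.03 ± 0.11 (-0.24 to 0.30). RT1-Ba differed by -0.27 ± 0.32 and RT1-N2 by -0.34 ± 0.66. Ciita differed by -0.15 ± 0.10 (adjusted p = 0.563 in limma), and by 0.01 once the arrays were normalized by cyclic loess. B2m differed by -0.10 ± 0.11 (adjusted p = 0.69 in limma). It differed by -0.08 after cyclic loess, by -0.09 after quantile normalization and by 0.02 with each array's median subtracted. The adjusted p-values of the 9 members in limma ran from 0.563 to 0.92.

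In withdrawal against dDAVP, which shares its dDAVP arrays with the comparison above, 0 of 9 members again passed the adjusted threshold in limma (0% of all genes). An unadjusted p under 0.05 was reached by 1 of 9, Ciita, against 19% of all genes. It averaged 6.95 ± 0.04 in the withdrawal group and 6.67 ± 0.06 in the dDAVP group, a difference of 0.28 ± 0.10 (95% interval 0.04 to 0.53, unadjusted p = 0.0308 and adjusted p = 0.26 in limma). The median of all genes was itself 0.14 higher in this comparison, and after cyclic loess the difference of Ciita was 0.07. Ciita and B2m were higher without overlap, 2 of 9 where 49.6% of all genes were. No member was lower without overlap, against 8.06% of all genes.

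RT1-N2 gave the most negative difference of the 9 in withdrawal against dDAVP, -0.88 ± 0.66, and it rested on 1 array: without withdrawal 1 it was 0.25. Cd74 differed by -0.42 ± 0.44 and RT1-Da by -0.34 ± 0.52, both with overlapping arrays. B2m averaged 12.65 ± 0.15 in the withdrawal group and 12.49 ± 0.05 in the dDAVP group, a difference of 0.16 ± 0.11 (adjusted p = 0.394 in limma). RT1-Ba (0.02), RT1-Bb (0.04), Tap1 (0.04) and Tap2 (-0.01) lay within 0.05 of 0 as deposited. After cyclic loess they differed by -0.08, -0.14, 0.03 and -0.13. The median of the members was 0.02 beside 0.14 for all genes, and -0.13 after cyclic loess, beside 0.0 for all genes.

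In withdrawal against vehicle, 0 of 9 members had an adjusted p under 0.05 in limma (0% of all genes) and 0 of 9 an unadjusted one (1.79% of all genes). The withdrawal arrays of Ciita lay above the vehicle arrays, 1 of 9 where 17.6% of all genes did so, and no member lay lower without overlap, against 13.1% of all genes. RT1-N2 averaged 9.45 ± 1.6 in the withdrawal group and 10.67 ± 0.28 in the vehicle group, a difference of -1.22 ± 0.66 (-2.83 to 0.39), which was -0.09 without withdrawal 1. RT1-Da differed by -0.57 ± 0.52, Cd74 by -0.26 ± 0.44 and RT1-Ba by -0.25 ± 0.32, and each of these had the opposite sign without vehicle 1. The other members lay between 0.02 (Tap2) and 0.13 (Ciita). All 9 adjusted p-values in limma were 0.995.

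**Figure D3:**
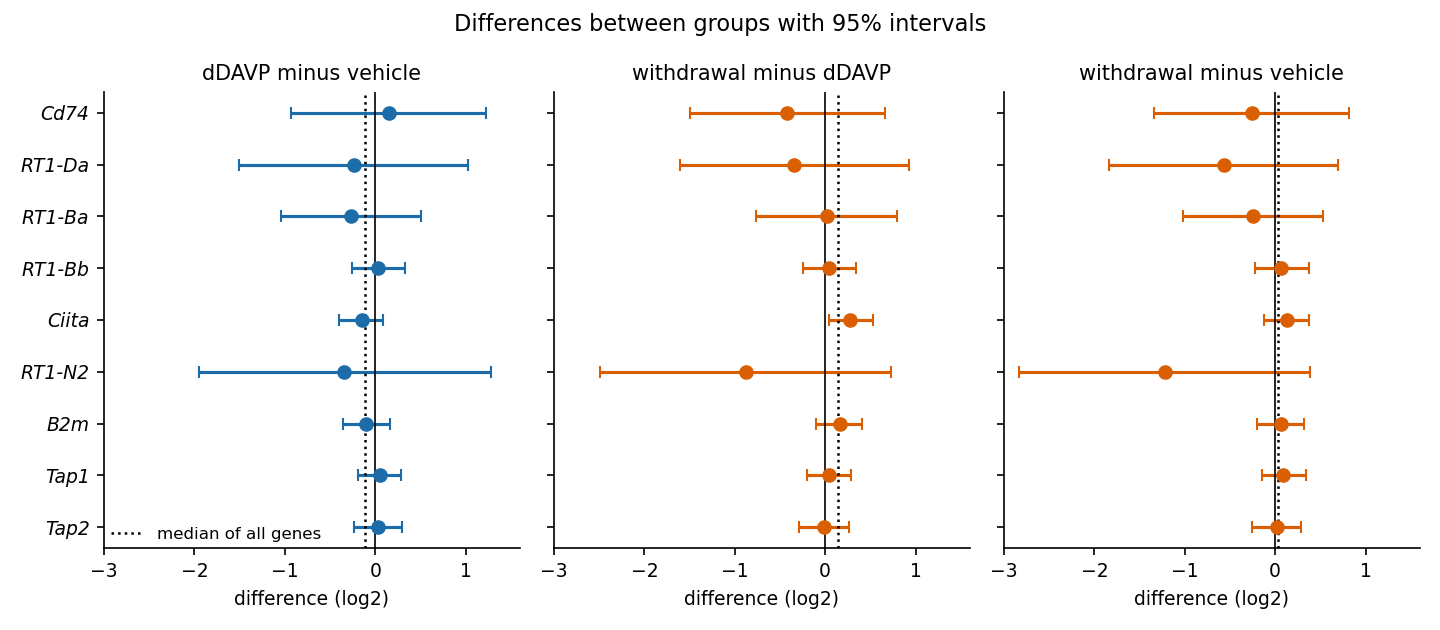
Differences of the 9 members in log2 units with 95% intervals from limma (panels from left, dDAVP minus vehicle, withdrawal minus dDAVP, withdrawal minus vehicle; dotted line, median of all genes). The intervals of Cd74, RT1-Da, RT1-Ba and RT1-N2 are wider than those of Tap1, Tap2, B2m, RT1-Bb and Ciita, and the interval of Ciita in withdrawal minus dDAVP (0.04 to 0.53) is the 1 that leaves out 0.

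Cd74, RT1-Da and RT1-Ba differed more between the 2 vehicle arrays, and between the 2 dDAVP arrays, than between the means of any 2 groups. For Cd74, RT1-Da, RT1-Ba and Tap2, vehicle 1 and dDAVP 2 were the 2 highest arrays, 4 of 9 members where 10.9% of all genes had that order. After cyclic loess it was 3 of 9, beside 15% of all genes. No member had those arrays as its 2 lowest, an order that 12.7% of all genes had. Across the 6 arrays, which share any handling effect and are not independent of the groups, Pearson's r was 0.94 between Cd74 and RT1-Da, 0.93 between RT1-Da and RT1-Ba and 0.84 between Cd74 and RT1-Ba, as a description. The genes most like Cd74 over the 6 arrays were Cd247 (the T cell receptor zeta chain, r = 0.992), Coro1a (a leukocyte actin regulator, r = 0.989), Mapk1ip1 (r = 0.983), Fxyd6 (r = 0.979) and Gldn (r = 0.973). Those most like Tap1 were Cdyl (r = 0.99), Mmp13, a collagenase (r = 0.988), Cdk2 (r = 0.984), Gemin7 (r = 0.983) and Cnih4 (r = 0.98). Both lists were picked as the highest r among the genes searched, over only 6 arrays, and r ignores the size of a change. Cd247 ran only from 6.73 to 6.94, where Cd74 ran from 8.74 to 9.99.

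Markers of the cells that could carry class II molecules did not all follow these arrays. Over all genes, vehicle 1 and dDAVP 2 were the 2 lowest arrays in 12.7% and the 2 highest in 10.9% (15.4% and 15% after cyclic loess). Of 11 measured macrophage markers 6 had them as their 2 lowest arrays (Adgre1, C1qa, C1qb, Cd14, Cd68 and Lyz2), and 1, Aif1, had them as its 2 highest. Cd68, a lysosomal protein of macrophages, measured 10.18 and 10.12 in the withdrawal arrays, 10.14 and 9.29 in the dDAVP arrays, against 9.33 and 10.39 in the vehicle arrays, so dDAVP 2 and vehicle 1 were low where Cd74 was high. The summed intensity of the macrophage list ran from 9018 to 9212 in the withdrawal arrays, from 7087 to 10095 in the dDAVP arrays, against 7202 to 10588 in the vehicle arrays. Of the class II proteases and turnover genes, 5 of 8 (Ctsd, Ctsh, Ctss, Ifi30 and Lgmn) also had vehicle 1 and dDAVP 2 lowest, 3 of 8 after cyclic loess. Of 8 T cell markers none had this pair highest as deposited, and 6 of 8 did after cyclic loess. Cd3g measured 7.36 and 8.21 in the withdrawal arrays, 7.97 and 8.54 in the dDAVP arrays, against 9.30 and 8.57 in the vehicle arrays, with vehicle 1 highest.

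The remaining marker lists are given by their summed intensities. That of the T cell list ran from 1147 to 1439 in the withdrawal arrays, from 1312 to 1547 in the dDAVP arrays, against 1625 to 2153 in the vehicle arrays. That of the 7 dendritic cell markers ran from 1030 to 1056 in the withdrawal arrays, from 882 to 936 in the dDAVP arrays, against 979 to 1086 in the vehicle arrays. For the 3 measured B cell markers it ran from 415 to 498 in the withdrawal arrays, from 338 to 363 in the dDAVP arrays, against 384 to 471 in the vehicle arrays. The dendritic and B cell sums were thus lowest in the dDAVP group, whose array medians (156.1 and 165.1) were also the lowest. In dDAVP against vehicle the median differences were -0.17 (dendritic) and -0.18 (B cell), and -0.02 for both after cyclic loess. In withdrawal against dDAVP they were 0.22 and 0.18, and 0.01 and -0.03 after cyclic loess. The sums are of dim probe sets, and no marker was listed at 0. Of 6 principal cell markers of the inner medulla 3 (Aqp4, Fxyd4 and Slc14a2) had vehicle 1 and dDAVP 2 lowest, beside 12.7% of all genes. After cyclic loess it was 2 of 6, beside 15.4%. Of 5 endothelial markers 3 (Kdr, Pecam1 and Tie1) had them highest, beside 10.9% of all genes, and 4 of 5 after cyclic loess, beside 15%. The principal cell marker Aqp2, the vasopressin-regulated water channel, measured 13.14 to 13.40 over all arrays, so this marker of the labelled tissue was present. The part of these cell types in the values of the members was not tested.

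**Figure D4:**
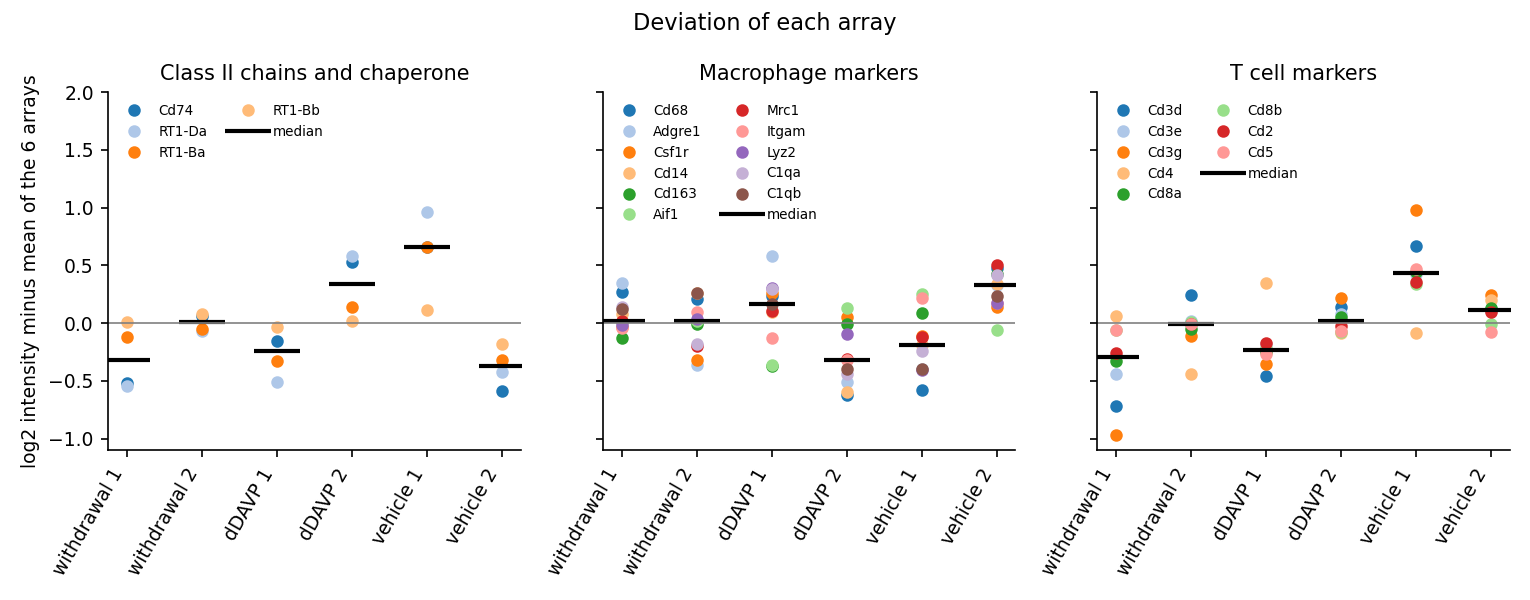
Deviation of each array from the gene's mean over the 6 arrays (log2) for Cd74, RT1-Da, RT1-Ba and RT1-Bb, for 11 macrophage markers and for 8 T cell markers, with the median as a bar. The class II median is highest in dDAVP 2 and vehicle 1, where the macrophage median is lowest.

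The class I pathway outside the 9 members was read from 28 heavy chain and class I-like genes, 7 loading and trimming genes and 5 immunoproteasome genes. In limma 0 of these had an adjusted p under 0.05 in any comparison. Of the 28 heavy chain genes 25 were below 0 in dDAVP minus vehicle, with a median of -0.11, and 24 were above 0 in withdrawal minus dDAVP, with a median of 0.15. Both medians were close to those of all genes (-0.11 and 0.14). After cyclic loess 19 of 28 were below 0 in dDAVP minus vehicle (median -0.06) and 24 of 28 above 0 in withdrawal minus dDAVP (median 0.08). The medians of all genes were then -0.0 and 0.0. The share of all genes on each side of 0 was not counted, and these genes are close copies of each other. At an unadjusted p under 0.05, 1 of 28 was lower in dDAVP against vehicle, where 7.43% of all genes passed, and 5 of 28 were higher in withdrawal against dDAVP, where 19% of all genes passed. Neither count stands above the share over all genes. RT1-S2 measured 7.49 and 7.47 in the withdrawal arrays, 6.99 and 7.19 in the dDAVP arrays, against 7.59 and 7.32 in the vehicle arrays. Its dDAVP arrays lay below all others, with differences of -0.37 ± 0.13 against vehicle (unadjusted p = 0.0279 in limma) and 0.39 ± 0.13 in withdrawal against dDAVP. Cyclic loess brought these to -0.20 and 0.20. In that comparison RT1-M5 (0.37 ± 0.12), RT1-T18 (0.29 ± 0.10) and RT1-CE2 (0.27 ± 0.09) also had unadjusted p-values under 0.05 in limma, and after cyclic loess they differed by 0.34 (RT1-M5), 0.08 (RT1-T18) and 0.24 (RT1-CE2). Fcgrt, the neonatal Fc receptor, had the smallest p of the list in withdrawal against vehicle, with a difference of -0.17 ± 0.10.

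The immunoproteasome cuts proteins into peptides that fit class I molecules. Its 5 genes had a median of -0.24 in dDAVP minus vehicle, beside -0.11 for all genes, and 5 of 5 were below 0 (Psme1 at -0.01). In withdrawal minus dDAVP their median was 0.20, beside 0.14 for all genes, and 4 of 5 were above 0. After cyclic loess the medians were -0.22, with 4 of 5 below 0, and 0.18, with 4 of 5 above 0. At an unadjusted p under 0.05 limma called 0 of 5 in each of the 3 comparisons. Its catalytic subunit Psmb8 measured 10.28 and 10.84 in the withdrawal arrays, 9.92 and 10.30 in the dDAVP arrays, against 10.60 and 10.50 in the vehicle arrays. The differences of Psmb8 were -0.44 ± 0.21 for dDAVP against vehicle and 0.44 ± 0.21 for withdrawal against dDAVP. They depended on single arrays: without dDAVP 1 they were -0.25 and 0.25, and without withdrawal 2 the second was 0.16. Psmb9, another catalytic subunit, differed by -0.11 ± 0.16 in withdrawal against vehicle. Among the loading genes Erap1, which trims peptides, differed by -0.25 ± 0.17 in dDAVP against vehicle, but by -0.03 without dDAVP 1. Tapbpl, a peptide editor, differed by -0.16 ± 0.11 in withdrawal against dDAVP (-0.26 after cyclic loess) and -0.17 ± 0.11 in withdrawal against vehicle.

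Class II genes outside the members also had 0 calls at an adjusted p under 0.05 in limma. At an unadjusted p under 0.05 limma called 1 of the 6 further chains and peptide editors in withdrawal against dDAVP, near the 19% of all genes. This was RT1-Ha, which differed by 0.25 ± 0.10 (unadjusted p = 0.0422 in limma) and by 0.03 after cyclic loess. RT1-DOa, a chain of the molecule that restrains peptide exchange, measured 7.67 and 7.65 in the withdrawal arrays, 7.38 and 7.41 in the dDAVP arrays, against 7.70 and 7.38 in the vehicle arrays. Vehicle 1 thus lay with the withdrawal arrays and vehicle 2 with the dDAVP arrays. The 8 protease and turnover genes were all above 0 in withdrawal minus dDAVP. Their median was 0.18, beside 0.14 for all genes as deposited, and 0.11 after cyclic loess, beside 0.0 for all genes. Marchf1, a ligase that removes class II molecules from the surface, differed by -0.26 ± 0.10 in dDAVP against vehicle (unadjusted p = 0.0483 in limma) and by -0.10 after cyclic loess. The protease Ctsb differed by 0.30 ± 0.19 in withdrawal against vehicle, and by 0.02 without vehicle 1.

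Factors known to act on these promoters gave 0 calls at an adjusted p under 0.05 in limma. Of the 6 class II promoter factors, 0 had an unadjusted p under 0.05 in limma in any comparison. Rfxap, a subunit of RFX, differed by 0.22 ± 0.11 in dDAVP against vehicle. Nfyb, a subunit of NF-Y, differed by 0.40 ± 0.19 in withdrawal against dDAVP (0.16 without dDAVP 1), and Rfx5 by 0.09 ± 0.09 in withdrawal against vehicle. Irf1, an interferon-induced factor that acts on class I and Ciita genes, measured 8.70 and 9.0 in the withdrawal arrays, 8.21 and 8.33 in the dDAVP arrays, against 8.70 and 8.85 in the vehicle arrays. Both dDAVP arrays were lowest, and the 2 differences had the unadjusted limma p-values 0.00803 (against vehicle) and 0.00433 (withdrawal against dDAVP), with adjusted values of 0.549 and 0.26. These were the smallest p-values among 9 interferon gamma signalling genes. The list medians were -0.06 and 0.12, beside -0.11 and 0.14 for all genes, and 0.04 and 0.01 after cyclic loess. At an unadjusted p under 0.05 limma called 1 of 9 lower against vehicle (7.43% of all genes). In withdrawal against dDAVP it called 2 higher and 1 lower (19% of all genes). Cyclic loess left the differences of Irf1 at -0.44 and 0.52. Of the class I members and Ciita, Tap1 and Tap2 differed by 0.05 or less in both comparisons as deposited. After cyclic loess Tap1 differed by 0.08 and 0.03, and Tap2 by 0.15 and -0.13. As deposited, B2m differed by -0.10 and 0.16 (-0.08 and 0.14 after cyclic loess) and Ciita by -0.15 and 0.28 (0.01 and 0.07). RT1-N2 differed by -0.34 and -0.88 (-0.31 and -0.90). A link of Irf1 to the members was not tested.

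Ifngr1, a chain of the interferon gamma receptor, ran the other way. It measured 10.11 and 10.10 in the withdrawal arrays, 10.43 and 10.44 in the dDAVP arrays, against 10.16 and 10.28 in the vehicle arrays, and differed by -0.33 ± 0.09 in withdrawal against dDAVP (unadjusted p = 0.0114 and adjusted p = 0.26 in limma). The dDAVP arrays were its highest. Socs1, an inhibitor of that receptor's signalling, differed by 0.29 ± 0.10 in withdrawal against dDAVP and by 0.08 after cyclic loess. The 6 co-stimulation genes were all above 0 in withdrawal minus dDAVP. Their median was 0.30, beside 0.14 for all genes as deposited, and 0.15 after cyclic loess, beside 0.0 for all genes. Of the 6, 1 had an unadjusted p under 0.05 in limma, near the 19% of all genes. This was Pdcd1lg2 (0.30 ± 0.11, 0.09 after cyclic loess). Icam1, an adhesion molecule, measured 9.23 and 9.22 in the withdrawal arrays, 9.11 and 8.78 in the dDAVP arrays, against 8.68 and 9.11 in the vehicle arrays, and its withdrawal arrays were the highest.

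**Figure D5:**
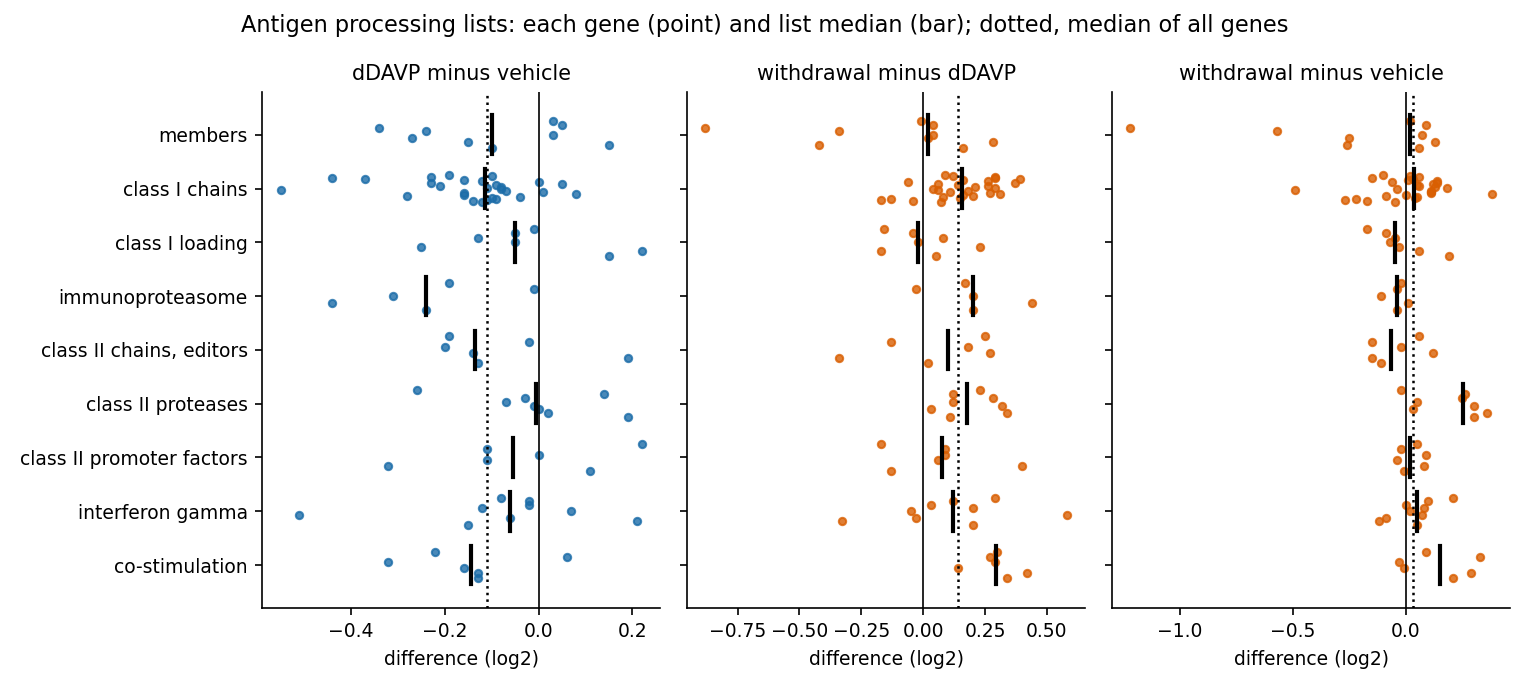
Difference of each measured gene (points) and median of each list (bars) in log2 units for the members and 8 antigen processing lists, in dDAVP minus vehicle, withdrawal minus dDAVP and withdrawal minus vehicle; the dotted line is the median of all genes. The immunoproteasome median (-0.24) is furthest below that line in dDAVP minus vehicle. The median of the class II proteases (0.25) is furthest above it in withdrawal minus vehicle, and it rests largely on low values in vehicle 1.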

How the data were processed

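Total RNA of 6 samples was measured on whole-transcript arrays, 300 ng labelled per sample, per the labels' protocols. Per the submitters' processing notes RMA was used; the authors deposited 1 linear intensity per probe set (30.2 to 10778.7), of which log2 was taken here. Neither its version nor a build is given in the sources used here. The number of arrays limits the precision, and array medians ran from 156.1 to 182.1. Of 28524 probe sets 14947 had 1 symbol, 318 several and 13259 were unlisted in the platform annotation; the brightest probe set per gene gave 14168 genes. limma 3.58.1 in R 4.3.3 fitted 1 mean per group to all 6 arrays (3 residual and 3.21 prior degrees of freedom), two-sided, with Benjamini-Hochberg adjustment over all genes in each of 3 comparisons, and was tested on simulated data. Members and lists were chosen with earlier results of these data known. Named genes were the members, up to 3 genes per list and comparison with the smallest p under 0.05 (otherwise the 1 smallest), the brightest markers and, for Cd74 and Tap1, the 5 genes most alike by Pearson's r. Markers and list genes named for their array order, and the motifs, were chosen after values were seen. Alternatives were the scaling, the probe set rule, a filter, a pseudocount, the variance model, the samples fitted, a replicate block and leaving out arrays. The labels do not say whether replicate numbers pair the samples, and the main fit did not pair them. Deviations of same-numbered arrays correlated at -0.62 (dDAVP and vehicle), -0.11 (withdrawal and dDAVP) and 0 (withdrawal and vehicle).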

Additional observations from a re-analysis of the deposited data

How the results depend on the processing

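No member had an adjusted p under 0.05 in limma in any of 429 values under the alternatives (smallest 0.152, Ciita, withdrawal against dDAVP, with an intensity trend). Genes passing stayed at 0 except for 2 in dDAVP against vehicle and 2 in withdrawal against dDAVP without dDAVP replicate 1 (range over left-out replicates 0 to 2 in both). The replicate block left 0 genes in all 3 comparisons. A crossed replicate block, added after seeing the data because same-numbered dDAVP and vehicle arrays deviated oppositely, gave 43 genes in dDAVP against vehicle, 0 of them members, and 0 in withdrawal against dDAVP. The median of the members ran from -0.24 (without vehicle 2) to 0.13 (without vehicle 1) in dDAVP against vehicle; it was -0.13 in withdrawal against dDAVP under cyclic loess and under quantile normalization, and -0.12 in withdrawal against vehicle without the dimmest 25% of genes.

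Signs of uncalled differences turned as follows. In dDAVP against vehicle Ciita was 0.01 with cyclic loess and 0.02 with quantile normalization, and B2m 0.02 with medians subtracted. In withdrawal against dDAVP, cyclic loess, subtracted medians and quantile normalization gave RT1-Ba -0.08, -0.10 and -0.09 and RT1-Bb -0.14, -0.08 and -0.14, and subtracted medians gave Tap1 -0.08. Without both vehicle 1 and dDAVP 2, RT1-Da was 0.21 and Tap2 0.06 in withdrawal against dDAVP, and Cd74 0.36, RT1-Da 0.12 and RT1-Ba 0.24 in withdrawal against vehicle. Leaving out 1 array at a time, dDAVP against vehicle ranged from -0.93 to 0.45 for RT1-Da, -0.75 to 0.22 for RT1-Ba, -0.47 to 0.78 for Cd74, -0.12 to 0.18 for RT1-Bb and -0.07 to 0.13 for Tap2. Withdrawal against dDAVP ranged from -0.22 to 0.25 for RT1-Ba, -0.88 to 0.21 for RT1-Da, -0.09 to 0.06 for Tap2, -2.01 to 0.25 for RT1-N2 and -0.04 to 0.13 for Tap1. Withdrawal against vehicle ranged from -0.89 to 0.36 for Cd74, -1.26 to 0.12 for RT1-Da, -0.74 to 0.24 for RT1-Ba, -0.07 to 0.22 for RT1-Bb, -0.09 to 0.12 for Tap2, -0.03 to 0.28 for RT1-DOa, -0.23 to 0.02 for Psmb9 and -0.05 to 0.17 for B2m. Without a change of sign, other named genes moved by over 1.5 times when 1 array was left out: -0.63 to -0.25 for Psmb8, -0.47 to -0.03 for Erap1 and -0.51 to -0.23 for RT1-S2 in dDAVP against vehicle. In withdrawal against dDAVP the ranges were 0.16 to 0.73 for Psmb8, 0.16 to 0.64 for Nfyb and -0.23 to -0.10 for Tapbpl, and in withdrawal against vehicle 0.02 to 0.58 for Ctsb, 0.04 to 0.15 for Rfx5 and -0.28 to -0.07 for Tapbpl. The cause was not tested. Detection calls were not used here, so how far a dim probe set such as that of Ciita lay above background is unknown.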

Other observations

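All 8 T cell markers were below 0 in withdrawal minus vehicle, with a median of -0.42 beside 0.03 for all genes (-0.44 after cyclic loess). At an unadjusted p under 0.05 limma called 4 of the 8 lower and none higher, where 1.79% of all genes passed in either direction. None passed after adjustment over all genes. The 8 are markers of a single cell type read on the same arrays, so they are not separate observations of the condition. The list was named here because of its values. In dDAVP minus vehicle 7 of 8 were also below 0, with a median of -0.34 (-0.18 after cyclic loess). In withdrawal minus dDAVP the median was -0.08 (-0.27 after cyclic loess). The summed intensity of the list was 2153 in vehicle 1, 1625 in vehicle 2, and 1147 and 1439 in the withdrawal arrays. Cd3g, a chain of the T cell receptor complex, averaged 7.79 ± 0.60 in the withdrawal group and 8.94 ± 0.52 in the vehicle group (log2, SD, n = 2 each). Its lowest array was withdrawal 1 (7.36) and its highest vehicle 1 (9.30), while withdrawal 2 (8.21) and vehicle 2 (8.57) lay closer together. The class II protease and turnover genes had a median of 0.25 in withdrawal minus vehicle, with 7 of 8 above 0. In limma 0 of 8 had an unadjusted p under 0.05. That median rested largely on 1 array. The summed intensity of the list was 20489 in vehicle 1 but 27412 in vehicle 2, beside 27863 and 27530 in the withdrawal arrays.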
